A study of Mus musculus with 8 samples.

Results

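Pairs of neighbouring protein-coding genes whose nearest ends lie almost back to back were examined for binding of Runx1 and Ezh2 and for the histone mark H3K27me3 in EML_C1 cells. A pair was taken where both genes lay on chromosomes 1 to 19 of the mouse build mm10, their spans did not overlap, and at most 1000 bp separated their nearest ends. The region of a pair was the gap plus 500 bp inside each gene. By this rule 2008 pairs were found, which held 3604 distinct genes, or 17.5% of the 20554 protein-coding genes on these chromosomes. The choice used the gene table alone and no peak. The median gap was 258.5 bp and the median region was 1258 bp wide. They were compared with 13876 single gene ends that had no other gene of any kind within 10 kb, each in a window of 1258 bp around the end, and with all 41108 protein-coding gene ends in windows of the same width.

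Chromatin immunoprecipitation and sequencing had been carried out in EML_C1, an immortalised mouse blood progenitor line kept in stem cell factor, whose strain is labelled C57BL/6. Each of the 3 antibodies, against Runx1, Ezh2 and H3K27me3, had 2 replicates. Cells for Runx1 and Ezh2 were fixed with 2 mM DSG, a protein crosslinker, for 60 min and with 1% formaldehyde for 60 min, whereas cells for H3K27me3 received 1% formaldehyde for 10 min. All libraries came from untreated cells of this single line, and the labels do not say whether the replicates were separate cultures, so their spread may be technical. Peak lists hold no expression, so the identity of the line could not be checked against marker genes here. The 2 input libraries were not analysed here.

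Runx1 is a transcription factor that blood stem cells need to form, and it binds DNA at a short core motif as a partner of Cbfb. Ezh2 is the enzyme of Polycomb repressive complex 2, which places H3K27me3 on genes that are kept silent. Neighbouring genes can meet in 3 ways. Where their starts face each other, a single stretch of DNA serves 2 promoters that fire away from each other, an arrangement common among DNA repair and housekeeping genes and usually rich in CpG. Where a start faces an end, the genes lie in tandem, and where both ends face, the gap holds terminators and no promoter.

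Direction could be given to 1435 pairs, from the strand of their promoters in a RefSeq table on GRCm38.p6, which has the coordinates of mm10. Starts faced each other in 565 pairs (median gap 100 bp), a start faced an end in 448 (median gap 452.5 bp) and ends faced each other in 422 (median gap 381 bp). Direction was not known for 573 pairs. Among the single ends 5652 were starts and 5408 were stops. The sequences below are whole gaps between facing starts, read on the plus strand from RefSeq promoters of GRCm38.p6. They belong to pairs that had some of the strongest Runx1, Ezh2 or H3K27me3 peaks, were well known, or carried the mark without Runx1. Not every Runx1 summit lay in the printed gap, and those of Tpmt/Kdm1b, at 47043415 and 47043421, lay outside it. Capitals mark the GC box GGGCGG on either strand, the binding letters of Sp1-type factors.
Nln/Sgtb gap, chr13:104109674-104109722: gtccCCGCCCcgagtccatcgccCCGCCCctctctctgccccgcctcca
Drap1/AI837181 gap, chr19:5424980-5425143: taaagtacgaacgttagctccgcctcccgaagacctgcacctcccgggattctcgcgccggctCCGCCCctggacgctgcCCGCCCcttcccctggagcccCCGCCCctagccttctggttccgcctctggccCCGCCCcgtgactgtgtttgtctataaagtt
Ccdc92/Zfp664 gap, chr5:124862500-124862704: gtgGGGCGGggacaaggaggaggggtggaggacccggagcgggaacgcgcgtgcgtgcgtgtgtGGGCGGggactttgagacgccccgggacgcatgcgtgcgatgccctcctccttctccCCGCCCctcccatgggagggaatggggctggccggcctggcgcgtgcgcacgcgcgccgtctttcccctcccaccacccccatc
Cryzl1/Itsn1 gap, chr16:91729207-91729309: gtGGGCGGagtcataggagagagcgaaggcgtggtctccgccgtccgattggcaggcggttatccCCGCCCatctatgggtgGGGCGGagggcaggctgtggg
Tpmt/Kdm1b gap, chr13:47043339-47043372: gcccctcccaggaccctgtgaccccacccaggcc
Atm/Npat gap, chr9:53536829-53536888: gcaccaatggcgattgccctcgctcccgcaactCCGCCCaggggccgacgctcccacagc
Brca1/Nbr1 gap, chr11:101551956-101552106: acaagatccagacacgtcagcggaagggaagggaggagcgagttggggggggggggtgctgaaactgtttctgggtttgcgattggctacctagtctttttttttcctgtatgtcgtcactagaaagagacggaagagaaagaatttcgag
Aldh5a1/Gpld1 gap, chr13:24937662-24937784: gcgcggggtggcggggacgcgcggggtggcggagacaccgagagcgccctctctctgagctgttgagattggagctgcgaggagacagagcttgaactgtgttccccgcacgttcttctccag
Gfy/Pth2 gap, chr7:45179598-45179700: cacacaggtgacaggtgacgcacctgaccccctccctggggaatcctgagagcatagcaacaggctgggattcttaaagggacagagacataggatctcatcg
The gaps of Nln/Sgtb, Drap1/AI837181, Ccdc92/Zfp664 and Cryzl1/Itsn1 held 2, 4, 3 and 3 GC boxes. The gap of Atm/Npat held 1, and the gaps of Tpmt/Kdm1b, Brca1/Nbr1, Aldh5a1/Gpld1 and Gfy/Pth2 held 0.

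The Runx1 libraries were alike, whereas those of the mark stood apart. Of the deposited peaks, 60.0% and 69.3% of Runx1 peaks in replicates 1 and 2 had a q of at most 0.01, against 20.2% and 14.1% for Ezh2 and 6.13% and 1.34% for H3K27me3. Results on the mark therefore rest on weak peaks. A region was called for an antibody where both replicates had a peak in it. Shares are given with exact 95% binomial intervals, which cover counting error only. With 2 libraries per antibody the smallest two-sided p of an exact permutation test of 2 against 2 libraries is 0.333. Pairs and single ends were measured in the same libraries. Their differences were not tested over libraries and are set beside the spread between replicates.

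Runx1 was found at pairs far more often than at single ends, and Ezh2 and its mark less often. Runx1 was called at 1045 of 2008 pairs, or 52.0% (49.8 to 54.2%), against 17.98% of single ends, where 24.3% of all gene ends were called. In single libraries the share of pairs with a Runx1 peak was 54.4% in replicate 1 and 54.3% in replicate 2. Ezh2 was called at 119 pairs, or 5.93% (4.93 to 7.05%), against 10.8% of single ends, where 9.84% of all gene ends were called. Its shares of pairs by library were 9.06% and 6.77%. H3K27me3 was called at 179 pairs, or 8.91% (7.70 to 10.2%), against 24.1% of single ends, where 20.7% of all gene ends were called. Its shares by library were 11.5% and 9.51%.

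The differences exceeded the spread between replicates for all 3 antibodies. Pairs minus single ends came to 34.9 and 34.5 percentage points for Runx1 in replicates 1 and 2, to -8.72 and -7.47 for Ezh2 and to -22.6 and -16.7 for H3K27me3. Over calls in both replicates the differences were 34.1 points (Newcombe 95% interval 31.8 to 36.3), -4.88 points (-5.96 to -3.65) and -15.1 points (-16.5 to -13.6). Runx1 was more frequent at pairs on 19 of 19 chromosomes and the mark less frequent on 19 of 19, while Ezh2 was less frequent on 16 and more frequent on 3. Limited to a q of 0.01, where 22.4%, 4.00% and 1.69% of all gene ends were called, pairs held Runx1 in 976 cases, Ezh2 in 69 and the mark in 16. Limited to a q of 1e-05, where 20.5%, 2.33% and 0.221% of all ends were called, Runx1 was at 907 pairs (45.2%), Ezh2 at 46 (2.29%) and H3K27me3 at 4 (0.199%). There the difference for Ezh2 shrank to -0.21 points and that for the mark to -0.111 points.

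The Runx1 share differed by which ends met. Where starts faced each other, 507 of 565 pairs had Runx1, or 89.7% (86.9 to 92.1%), against 1852 of 5652 single starts, or 32.8%. Where a start faced an end the share was 53.8% (241 of 448), and where ends faced it was 8.77% (37 of 422) against 2.70% of single stops. The facing starts exceeded single starts by 57.0 and 55.9 points in replicates 1 and 2. A pair region holds 2 gene ends and a single window 1, so these shares are not like for like. If 2 single starts were joined and called independently, 54.8% would have Runx1, 27.6% Ezh2 and 49.1% the mark. For 1 start joined to 1 stop Runx1 would be at 34.6%, and for 2 stops at 5.33%.

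**Figure D1:**
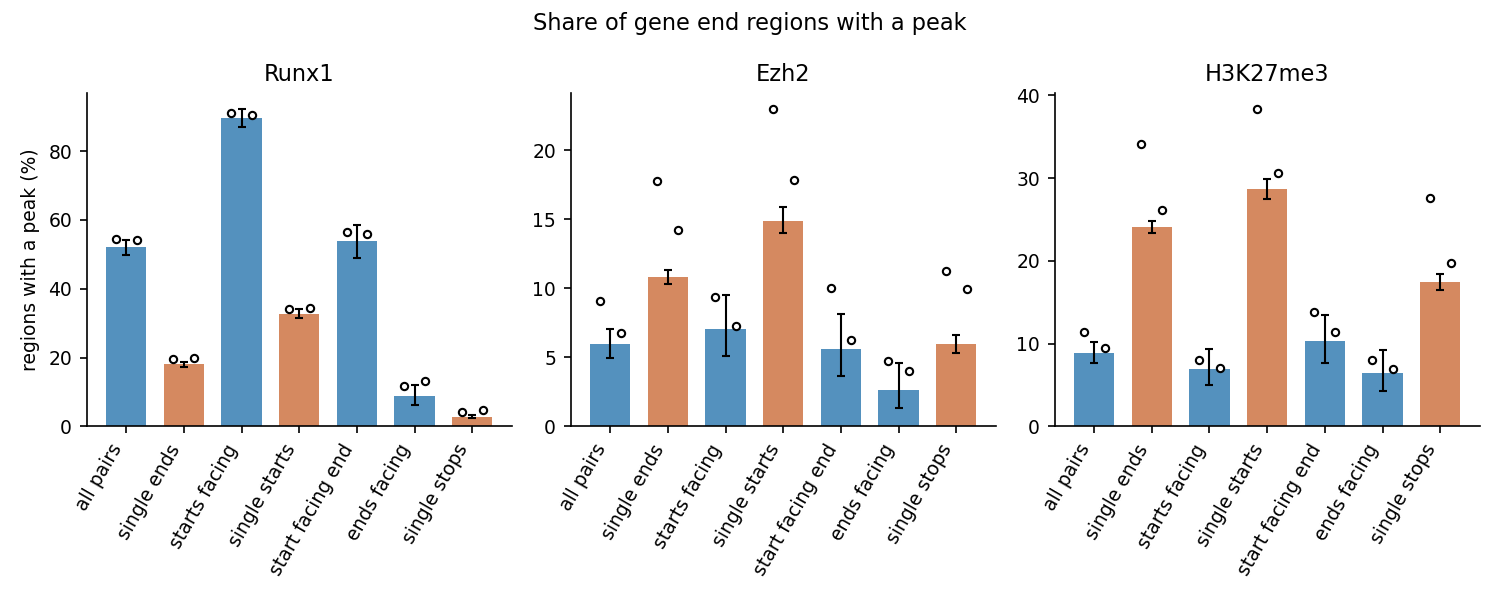
Share of regions with a peak (y axis, %) for pairs (blue) and single gene ends (orange), 1 panel per antibody, by which ends meet. Bars count regions with a peak in both replicates with exact 95% binomial intervals, and open circles give replicates 1 and 2 alone. Runx1 reaches 89.7% where starts face each other and 8.77% where ends do, whereas with all deposited peaks Ezh2 and H3K27me3 are lower at facing starts and facing ends than at single starts and stops.

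With all deposited peaks Ezh2 and the mark were less frequent at facing starts and at facing ends than at the matching single ends. Facing starts had Ezh2 in 7.08% (5.11 to 9.52%) against 14.9% of single starts, and H3K27me3 in 6.90% (4.95 to 9.32%) against 28.7%. Facing ends had Ezh2 in 2.61% against 5.94% of single stops, and the mark in 6.40% against 17.4%. At a q limit of 1e-05 the Ezh2 shares of facing starts and single starts were 3.72% (2.32 to 5.63%) and 4.48% (3.95 to 5.05%), and their intervals overlapped, while Runx1 stayed at 80.0% against 28.7%. At facing ends the order for Ezh2 turned with stricter peaks, to 4 of 422 (0.948%) against 0.832% of single stops at a q limit of 0.01 and to 3 (0.711%) against 0.185% at 1e-05. The intervals overlapped at both limits, with 0.147 to 2.06% for facing ends and 0.0887 to 0.340% for single stops at 1e-05. Olfactory and vomeronasal receptor genes, which lie apart from each other and are silent outside sensory neurons, made up 12.1% of single ends but touched 5 pairs. Without them the differences were 31.8 points for Runx1 and -5.79 for Ezh2.

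The Runx1 share declined with the gap. It was 65.4%, 59.4%, 45.4% and 38.7% of pairs with gaps of up to 100 bp, then up to 250, up to 500 and up to 1000 bp. Among facing starts alone it was 90.5%, 90.3%, 96.5% and 69.0%, with an interval of 52.9 to 82.4% for the 42 pairs of the widest class. Pairs with a start facing an end gave 39.7%, 64.5%, 46.2% and 58.4%, and those with ends facing 7.59%, 6.98%, 12.7% and 7.74%, with no steady decline in either. Facing starts made up 283 of the 566 narrowest pairs and 42 of the 597 widest, and the part of direction in the decline was not tested. The mark ran the other way, from 5.65% to 12.2% of pairs, and regions were wider where gaps were wider. Within a direction it did not rise steadily. Facing starts gave 4.95%, 8.39%, 3.53% and 21.4% (9 of 42). A start facing an end gave 6.90%, 5.26%, 12.8% and 11.7%, and ends facing gave 5.06%, 6.98%, 3.92% and 8.39%. The share of bases covered by H3K27me3 peaks was 4.46 ± 0.545% in the narrowest and 8.74 ± 2.14% in the widest class (SD, n = 2).

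**Figure D2:**
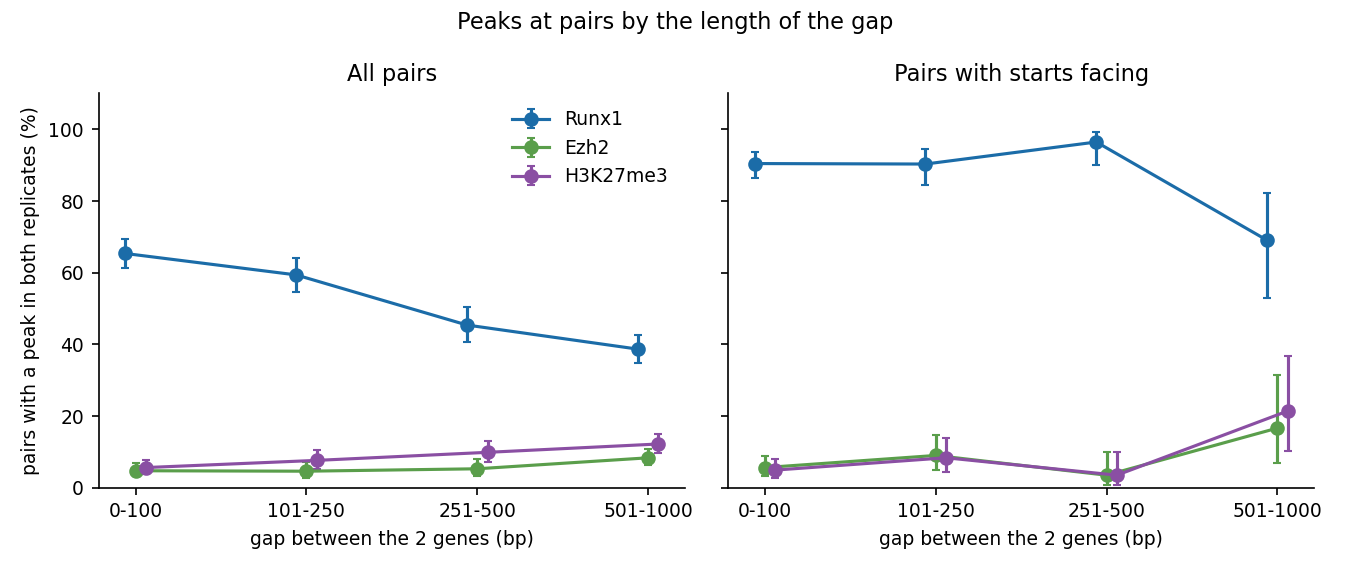
Share of pairs with a peak in both replicates (y axis, %) by the gap between the genes (x axis, bp), for all pairs on the left and facing starts on the right, with exact 95% binomial intervals. Runx1 runs from 65.4% to 38.7% over all pairs but stays above 90% up to gaps of 500 bp among facing starts.

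Starts that overlapped another gene had Runx1 in 46.5% and the mark in 22.8%. Of the others, Runx1 was called at 70.9% of starts whose nearest gene lay 1 to 1000 bp away, at 43.9% for up to 2000 bp, at 41.9% for up to 5000 bp, at 35.4% for up to 10000 bp and at 32.8% beyond. H3K27me3 ran from 14.3% at 1 to 1000 bp to 28.7% beyond 10 kb. The largest step in Runx1 between neighbouring classes beyond overlap was from the first to the second. At the limit of the rule itself the order was not kept. Members in the last 100 bp below the limit of 1000 bp had Runx1 in 27 of 88 and Ezh2 in 11, and pairs just outside, with gaps of up to 1100 bp, in 36 and 7 of 89.

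Runx1 lay at the starts of these genes and rarely at their other ends. Of 798 genes in facing-start pairs with the far end outside any pair region, 716 had Runx1 at the shared end and 31 at the far end. Of 550 genes whose ends faced, 45 had Runx1 at the shared end, while 335, or 60.9%, had it at their far end, which is their start. Single starts gave 32.8%, so a Runx1 share above that of single starts was not particular to shared starts. Where a start faced an end, Runx1 covered the flank of the start alone in 165 pairs and that of the end alone in 8.

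Runx1 peaks mostly spanned both genes where starts faced, much as they reached both sides of single starts. Both 500 bp flanks were covered in 433 of 507 called pairs, or 85.4% (82.0 to 88.4%), and peaks at single starts lay both inside and outside the gene in 83.9%. For every antibody the flanks of a pair are parted by the gap, whereas the sides of a single start adjoin, so these measures differ. Summits lay near the middle of the gap, with a median distance of 64.25 bp in replicate 1 and 62.25 bp in replicate 2, and 41.1% and 43.3% lay in the gap, which makes up 12.4% of these regions. In replicate 1, 64.2% of summits were within 100 bp of the middle, and 61.5% of those at single starts were within 100 bp of the start. The summits of the replicates were a median of 15 bp apart. In tandem pairs 81.1% and 83.1% of Runx1 summits lay within 250 bp of the start.

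Few Ezh2 summits at facing starts lay in the gap, and their positions differed more between replicates. Of its summits in these regions, 2 of 31 in replicate 1 and 1 of 32 in replicate 2 fell in the gap, and the median distance from its middle was 365 bp and 343.5 bp. At single starts Ezh2 summits lay a median of 163 and 146 bp into the gene. The replicate summits of Ezh2 at facing starts were a median of 96.5 bp apart, and 52.5% were within 100 bp. Ezh2 covered both flanks in 17 of its 40 facing-start pairs, against both sides in 55.7% of its single starts. H3K27me3 covered both in 25 of 39, against 65.6%, and its peaks at pairs were wide, with medians of 5071 bp in replicate 1 and 2425 bp in replicate 2, against 3087 and 1406 bp at single ends.

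**Figure D3:**
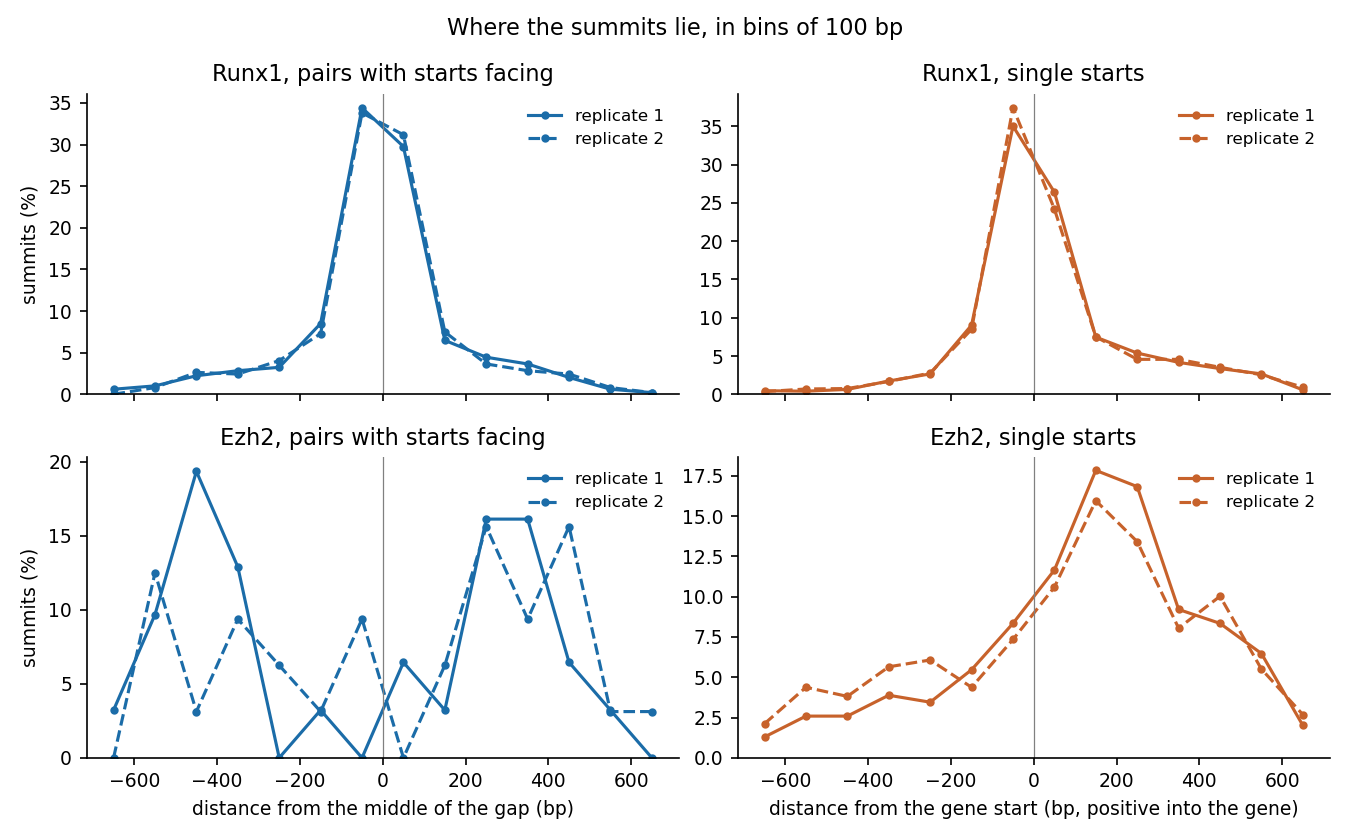
Distribution of peak summits in bins of 100 bp (y axis, % of summits in the region) around the middle of the gap of facing starts (left) or around single starts, positive into the gene (right), with replicate 1 solid and replicate 2 dashed. Runx1 summits gather at the middle of the gap, within a median of 64.25 and 62.25 bp, while the few Ezh2 summits, 31 and 32, lie to either side.

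Although Runx1 was found at more pairs, its peaks there were not higher. The median of the highest fold enrichment, the authors' value of each peak, was 7.38 and 7.07 at called pairs in replicates 1 and 2 and 7.42 and 7.78 at called single ends. A mean fold of 20 or more was reached by 175 called pairs (16.7%) and 21.8% of called single ends. The median Ezh2 fold was 3.20 ± 0.328 at pairs and 2.90 ± 0.204 at single ends (SD, n = 2), and that of H3K27me3 was 2.24 ± 0.198 and 2.25 ± 0.134. Folds of the narrow Runx1 and Ezh2 peaks are not comparable with those of the broad peaks of the mark. Spearman's rho of the fold between libraries, across called pairs that share those libraries, was 0.970 (Runx1), 0.734 (Ezh2) and 0.720 (H3K27me3), as a description.

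The strongest Runx1 peak of any pair lay between Nln, a peptidase gene, and Sgtb, a co-chaperone gene (gap 49 bp, sequence above), with folds of 191.5 and 154.8 in replicates 1 and 2. Its summits fell at positions 104109687 and 104109689 of chromosome 13, inside the gap. Abtb1/Podxl2 followed with 128 and 109 and Tpmt/Kdm1b with 127 and 108. Tpmt inactivates thiopurine drugs and Kdm1b removes methyl groups from histone H3. The others of the 8 strongest were Drap1/AI837181 with 111.0 and 104.7, Coq8b/Numbl with 112 and 100.2, Eif4e1b/Tspan17 with 113 and 93.4, Zfp78/Zfp28 with 109 and 90.6, and Plag1/Chchd7 with 90.5 and 107. Replicate 1 was higher in 7 of these 8 pairs. Nln/Sgtb and Eif4e1b/Tspan17 also carried Ezh2 and H3K27me3, at folds of 4.48 and 3.26 for Ezh2 at the first. Neither kept the mark at a q limit of 0.01.

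The strongest Ezh2 peak lay where Commd3 meets Bmi1, a gene of Polycomb repressive complex 1, in tandem with a gap of 786 bp on chromosome 2. Its Ezh2 folds were 77.4 and 90.4, its Runx1 folds were 7.96 and 9.75, and no H3K27me3 peak touched the region in either replicate. Next came Cryzl1/Itsn1 (sequence above) with Ezh2 folds of 35.3 and 23.7, Runx1 folds of 51.6 and 48.3 and mark folds of 3.08 and 3.59. Epb41l4b/LOC108168956 had 21.4 and 16.9, and Cdc40/Wasf1, a splicing factor gene beside a regulator of actin, had 18.3 and 12.1. Bmp1/Sftpc, Lyzl4/Vipr1, Aldh5a1/Gpld1 and Zfp36l1/Gm52006 had mean Ezh2 folds between 10.6 and 14.7. Of these 8 pairs, 7 carried the mark and 6 carried Runx1.

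The highest folds of the mark were at Cdc40/Wasf1, with 6.22 and 3.86. Zfp53/Zfp52, a tandem pair of zinc finger genes, had 4.12 and 3.98, Slc25a27/Cyp39a1 had 3.23 and 4.52, and Ccdc92/Zfp664 had 5.21 and 2.29. The replicates were far apart at the last of these. Of the 8 pairs with the highest mark, 7 also had Ezh2, beside 49.2% of all pairs with the mark. Gfy/Pth2, beside the gene of a brain peptide hormone, had the mark alone, at 3.31 and 2.65.

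**Figure D4:**
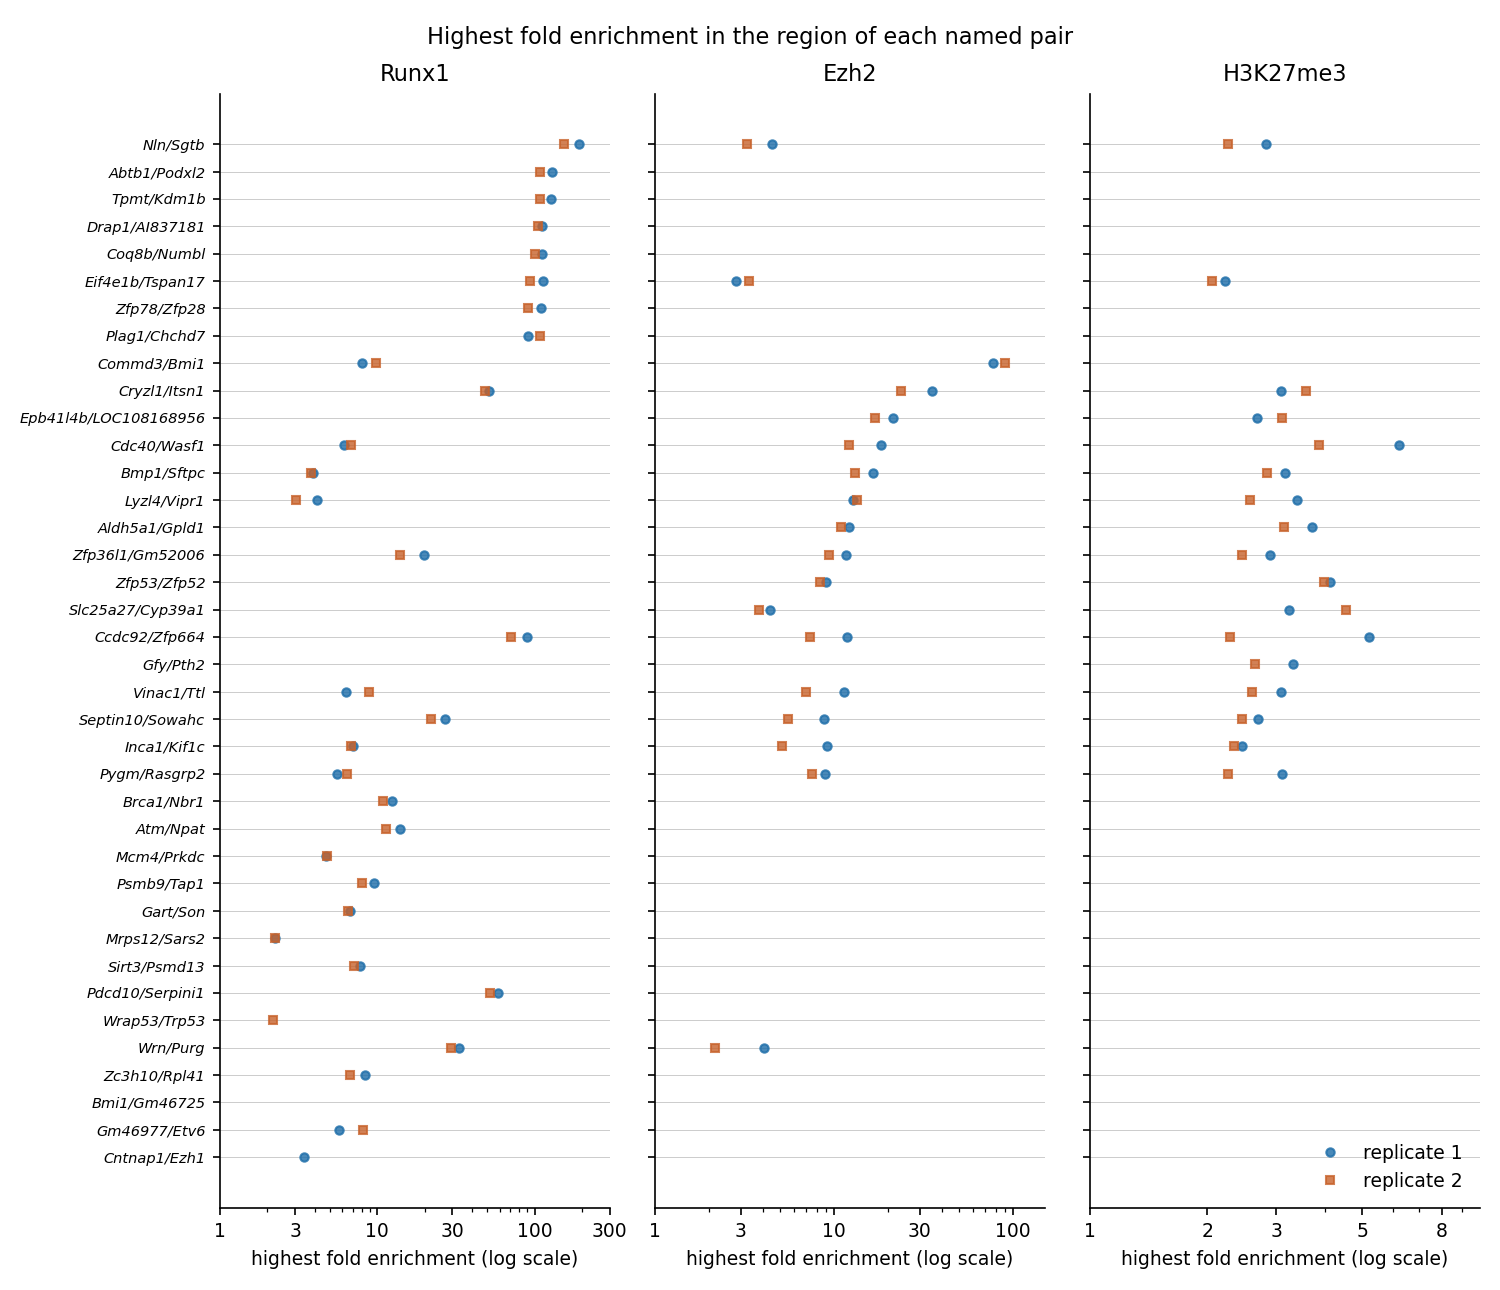
Highest fold enrichment in the region of each named pair (x axes, log scale) in replicate 1 (blue circles) and replicate 2 (orange squares), 1 panel per antibody; a missing point means that no peak of that library touched the region. The replicates lie close together for Runx1, and no point of the mark stands beside Commd3/Bmi1.

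Most pairs held a single antibody or none. Runx1 was alone at 983 pairs, H3K27me3 at 84 and Ezh2 at 6, and 815 pairs had none of the 3. Ezh2 and the mark without Runx1 met at 58 pairs. Runx1 met Ezh2 at 55 pairs (2.74%, where 2.01% of all gene ends had both), Runx1 met the mark at 37 (1.84%, against 1.45%), and Ezh2 met the mark at 88 (4.38%, against 8.35%). All 3 met at 30 pairs (1.49%, against 1.24%). Among pairs with Ezh2, 46.2% (37.0 to 55.6%) also had Runx1, against 52.0% of all pairs. Among single ends with Ezh2 it was 19.9%, against 17.98% of all single ends. Each share was near its background over all deposited peaks and directions. At q limits of 0.01 and 1e-05, 60.9% (48.4 to 72.4%) and 69.6% (54.2 to 82.3%) of pairs with Ezh2 had Runx1. All pairs gave 48.6% and 45.2%, so the share exceeded that of all pairs at 1e-05. Direction was not held fixed in this comparison. At 1e-05 facing starts were 21 of the 46 pairs with Ezh2 but 565 of all 2008 pairs, and 80.0% of facing starts had Runx1. At starts, with all deposited peaks, the shares were below background. Runx1 was at 30 of 40 facing starts with Ezh2 (58.8 to 87.3%), against 89.7% of all facing starts. Single starts with Ezh2 gave 28.1% (25.1 to 31.3%), against 32.8%. With all deposited peaks, 73.9% of the pairs with Ezh2 also had the mark, against 84.6% of single ends with Ezh2.

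At facing starts the mark was more frequent where Runx1 was not called, with all deposited peaks. H3K27me3 was at 22 of the 58 facing starts without Runx1, or 37.9% (25.5 to 51.6%), and at 17 of the 507 with it, or 3.35% (1.97 to 5.31%). Single starts gave 38.4% without and 8.75% with Runx1. At a q limit of 0.01 the contrast was smaller, with the mark at 3 of 77 facing starts without Runx1 (3.90%, 0.811 to 11.0%) and 6 of 488 with it (1.23%, 0.453 to 2.66%), and these intervals overlapped. Pairs with all 3 antibodies and strong narrow peaks included Vinac1/Ttl (Ezh2 folds 11.3 and 6.94), Septin10/Sowahc (8.81 and 5.55), Inca1/Kif1c (9.10 and 5.13) and Pygm/Rasgrp2 (8.87 and 7.56), the last beside an exchange factor of RAP proteins in blood cells. At a q limit of 0.01 Inca1/Kif1c and Pygm/Rasgrp2 lost the mark, and of 17 named pairs with the mark 11 kept it. Without replicate 2 of each antibody the pairs with all 3 numbered 50, and with a q of at most 0.01 they numbered 7.

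Of 34 gene pairs listed as known neighbours, 14 were members, and 13 of these had Runx1, beside 52.0% of all pairs. Starts faced each other in 10 of them, of which 9 had Runx1, beside 89.7% of all facing starts. Among genes of DNA repair, Atm/Npat had Runx1 folds of 14.0 and 11.4, Brca1/Nbr1 had 12.5 and 10.8, Mcm4/Prkdc had 4.72 and 4.79 and Wrn/Purg had 33.0 and 29.2. Psmb9/Tap1, which serve antigen presentation, had 9.53 and 8.04. Sirt3/Psmd13 had 7.79 and 7.07, Gart/Son 6.66 and 6.47, Zc3h10/Rpl41 8.31 and 6.73, Pdcd10/Serpini1 58.5 and 51.9, and Mrps12/Sars2, both of mitochondrial translation, 2.24 and 2.24. The exception was Wrap53/Trp53, where replicate 2 alone had a peak, with a fold of 2.16. Ezh2 was at 4 of the 14 and the mark at 2, where all pairs gave 5.93% and 8.91%. The list also held Nln/Sgtb, Commd3/Bmi1 and Cryzl1/Itsn1, and it was drawn up with earlier results of these data known.

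Of 53 blood regulators in the table, 4 were members, in 5 pairs. That is 7.55% (2.09 to 18.2%), beside 17.5% of all protein-coding genes, which lies within the interval. Runx1 was at 2 of the 5 pairs, Ezh2 at 1 and the mark at 0. Etv6, a repressor gene of blood stem cells, faced Gm46977 with Runx1 folds of 5.74 and 8.07. Ezh1, the relative of Ezh2, lay beside Cntnap1, where replicate 1 alone had a Runx1 peak, with a fold of 3.43. The far end of Bmi1, beside Gm46725, had no peak of any antibody.

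Pairs were common among genes that every cell uses. In pairs were 45 of 79 histone genes, 50 of 106 respiratory chain genes, 30 of 78 genes of mitochondrial ribosomal proteins and 36 of 106 genes of DNA repair and replication. All protein-coding genes gave 17.5%. Nearer to that share were cytosolic ribosomal proteins, with 23 of 87 genes in pairs, and trafficking, with 29 of 129. Olfactory and vomeronasal receptors had 7 of 1454 genes in pairs. Runx1 was called at 22 of 29 histone pairs, 39 of 53 respiratory chain pairs, 25 of 34 mitochondrial ribosomal pairs and 32 of 39 repair and replication pairs, where all pairs gave 52.0%. Facing starts numbered 10, 26, 16 and 20 in these groups, of which 7, 25, 16 and 19 had Runx1, and all facing starts gave 89.7%. Other groups lay near the share of all pairs, with Runx1 at 17 of 30 pairs of cytosolic ribosomal proteins, 12 of 21 of the proteasome, 14 of 24 of Mediator and RNA polymerase and 16 of 32 of trafficking. Ezh2 was at 0 of 29 histone pairs, 1 of 53 respiratory chain pairs and 1 of 39 repair and replication pairs, where all pairs gave 5.93%. Whether these small counts differ from that share was not tested. Examples chosen after their values were seen were Vmac/Ndufa11 with Runx1 folds of 59.0 and 50.2, Mrpl49/Fau with 41.7 and 33.7, Rad51c/Tex14 with 25.3 and 22.4 and H3c15/H2ac19 with 31.9 and 30.4.

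Of 4 Hox pairs, 3 had Ezh2 and the mark and 0 had Runx1, where all pairs gave 5.93%, 8.91% and 52.0%. Hoxb8/Hoxb7 had Ezh2 folds of 6.66 and 6.83, Hoxc5/Hoxc4 had 4.08 and 4.85 and Hoxb5/Hoxb3 had 2.88 and 3.42, while Hoxa5/Hoxa6 had a mark peak in replicate 1 alone. These genes pattern the body axis, and the 2 HoxB pairs lay under 1 wide mark peak, so they share their mark folds of 3.18 and 2.69. Of 50 zinc finger pairs, 28 had Runx1 and 4 had Ezh2, or 56% and 8%, close to the shares of all pairs. Kallikrein and Prss protease genes formed 5 pairs, of which 3 had the mark and 0 had Runx1, beside 8.91% and 52.0% of all pairs. Of the 17 single ends of these genes, 10 had the mark and 2 had Runx1.

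Facing starts were rich in CpG, and the number of CpG moved with Runx1. The median number of CpG in a promoter window of 300 bp, from 250 bp before to 50 bp after the start, was 23 at facing starts, 10 at single starts and 14 over 16456 promoters. Runx1 was called at 5.02% of single starts with fewer than 5 CpG, at 35.5% of those with 10 to below 15, and at 62.0% of those with 25 or more. At equal CpG the facing starts stayed higher, with 83.3% (71.5 to 91.7%) for 10 to below 15 and 95.5% (92.0 to 97.7%) for 25 or more. Of 9 facing starts with fewer than 5 CpG, 0 had Runx1, with an upper 95% limit of 33.6%. Weighted to the CpG of facing starts, single starts gave 54.3% for Runx1, 18.2% for Ezh2 and 28.9% for the mark, against 89.7%, 7.08% and 6.90%. The weighting lowered the difference for Runx1 from 57.0 to 35.4 points. It did not adjust for the 2 starts that each facing-start region holds.

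**Figure D5:**
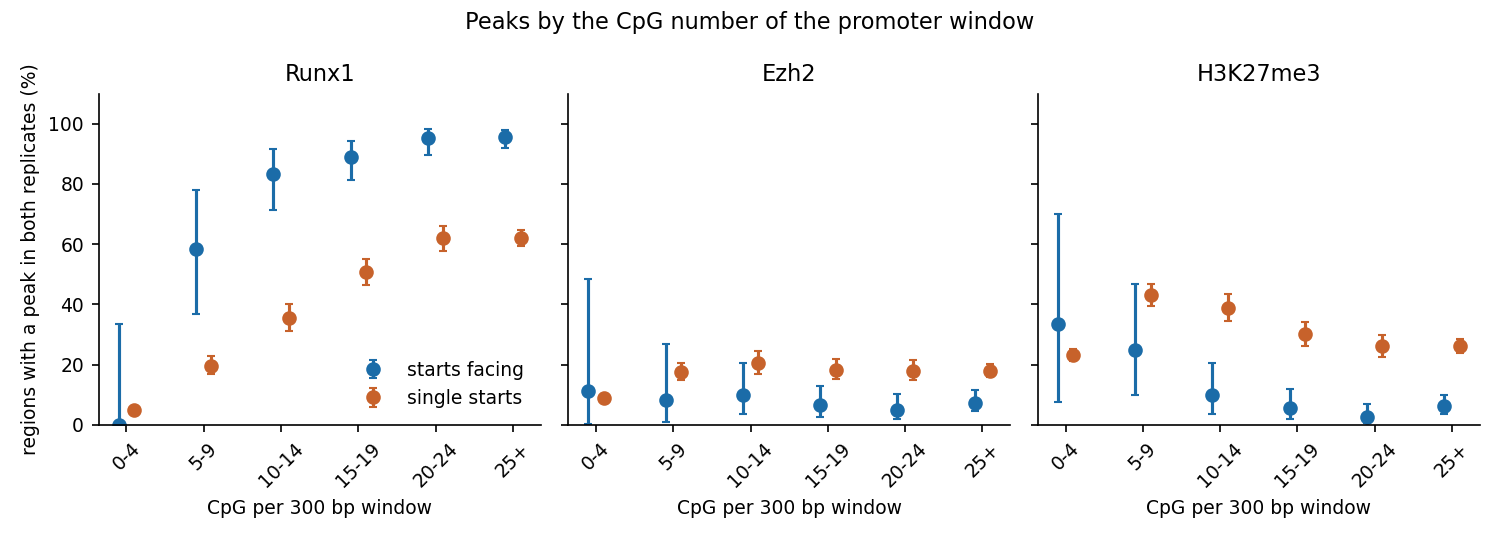
Share with a peak in both replicates (y axis, %) by CpG in the promoter window of 300 bp (x axis; for pairs the mean of both windows), for facing starts (blue) and single starts (orange), with exact 95% binomial intervals. Runx1 is more frequent above 15 CpG than below in both sets, and from 5 CpG upward the facing starts lie higher for Runx1; the lowest class holds 9 pairs.

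Over all CpG classes together, the RUNX core letters TGTGGT were less frequent at facing starts than at single starts. Other forms of the core were not searched. The order for TGTGGT turned in the class of 25 or more CpG alone, where the intervals overlapped. The RUNX core TGTGGT, searched on both strands, was in 10.7% of their promoter windows, against 14.8% of all promoters and 848 of 5652 single starts. It was in 10.5% of windows of pairs with Runx1 and in 12.1% of those without. The GC box GGGCGG was in 66.3% (all promoters 47.3%), the ETS motif CCGGAAG in 27.2% (all 12.3%), the NRF1 motif in 3.56% (all 1.37%) and the CCAAT box CCAAT in 45.2% (all 39.1%). All were searched on both strands, matches of different motifs may overlap, and a match is a description and not a site. These shares do not hold CpG fixed. At 25 or more CpG the RUNX core was in 50 of 507 facing-start windows (9.86%, 7.41 to 12.8%). Single-start windows of that class gave 6.81% (5.52 to 8.29%). At 15 to below 25 CpG the RUNX core was in 9.60% of facing-start and 11.4% of single-start windows, and at 5 to below 15 in 15.5% and 16.7%. The GC box at 25 or more CpG was in 79.5% and 89.5%. The ETS motif there was in 32.9% and 14.1%. In facing-start windows with 5 to below 15 CpG the RUNX core was in 7 of 27 with Runx1 summits of both replicates and in 15 of 115 without. At 15 to below 25 CpG these shares were 10.5% with summits and 8.19% without, and at 25 or more they were 9.77% and 10.2%. Over all facing-start windows they were 10.7% and 10.7%.

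The height of Runx1 moved with the GC box and not with the RUNX core letters TGTGGT, the only form searched. Counting either of the 2 windows of a pair, a GC box was in 73.5% of 162 pairs with a mean Runx1 fold of 1 to below 5, in 74.4% of 156 with 5 to below 10, in 88.8% of 98 with 10 to below 20 and in 96.7% of 91 with 20 or more, against 51.7% of the 58 pairs without Runx1. The RUNX core was in 17.9%, 18.6%, 13.3% and 15.4%, against 20.7%. A pair of windows holds more letters than the single windows above, so these shares are not comparable with those of all promoters. CpG number was not held fixed here. At single starts with fewer than 5 CpG the RUNX core was in 23 of 38 windows (60.5%) that held Runx1 summits of both replicates, and in 20.6% of 1993 that did not. At single starts with 25 or more CpG it was in 8.98% and 4.71%. Facing starts had 0 windows with summits below 5 CpG.

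The gap itself could be read for 492 of the 565 facing starts. A RUNX core lay in 18 of these gaps and a GC box in 204. Of the gaps with Runx1, 44.3% of 451 held a GC box, against 4 of 41 without. The gaps below have a RUNX core, in capitals on either strand, and are printed as examples, chosen after their values were seen, of gaps that hold those letters in a pair with Runx1.
Styxl1/Mdh2 gap, chr5:135778425-135778648: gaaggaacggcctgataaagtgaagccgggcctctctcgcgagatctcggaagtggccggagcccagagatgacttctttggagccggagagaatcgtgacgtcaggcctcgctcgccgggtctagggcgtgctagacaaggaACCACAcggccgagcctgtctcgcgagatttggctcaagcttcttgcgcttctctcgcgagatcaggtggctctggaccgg
Hras/Lrrc56 gap, chr7:141194020-141194110: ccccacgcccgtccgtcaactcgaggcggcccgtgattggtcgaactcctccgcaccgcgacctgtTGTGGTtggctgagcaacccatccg
Styxl1/Mdh2, beside the gene of a malate dehydrogenase, had a mean Runx1 fold of 35.6, and its summits lay outside the gap at 135778417 and 135778408, before its first base. Hras/Lrrc56, beside a RAS gene, had a mean fold of 14.99 with summits at 141194070 and 141194064 of chromosome 7, inside the gap. For comparison the summits of Nln/Sgtb, the pair with the highest fold, lay in a gap with 0 RUNX cores of the form TGTGGT and 2 GC boxes.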

How the data were processed

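Per the submitters' processing notes, the tools were Bowtie2 2.2.1, Picard, SAMtools and MACS2 2.0.10 and the build mm10, with no role or parameters given. The authors deposited 6 peak lists, 1 per library, narrow for Runx1 and Ezh2 and broad for H3K27me3. Each deposited peak has a fold enrichment, which is a linear ratio, p- and q-values on the -log10 scale, and a score, which was not used. No file holds read counts, so depth is unknown.

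Genes and promoters came from RefSeq tables on GRCm38.p6. Of the listed genes, 333 were left out, 107 of them protein-coding, because their positions restart after the end of a chromosome's list and so belong to scaffolds or patches. Direction came from the promoter table, which covers 2951 genes of pairs and lacks chromosome 18. A region was called where both replicates had a peak with at least 1 bp in it. Python 3.11.15 with numpy 2.4.6, pandas 2.3.3 and scipy 1.17.1 computed shares, exact binomial intervals and Newcombe intervals, and the overlap code was tested on simulated data. Named pairs were the 8 with the highest mean fold per antibody, up to 8 with all 3 antibodies and narrow q of at most 1e-05, listed known neighbours and pairs with a listed blood regulator. Members and lists were chosen with earlier results of these data known. Alternatives covered peak strictness, overlap, windows, isolation, single replicates and CpG weighting.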

Additional observations from a re-analysis of the deposited data

Results flagged for a closer look

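The antibodies moved in opposite directions between pairs and single ends in every library. Pairs minus single ends was 34.7 ± 0.269 percentage points for Runx1, -8.09 ± 0.877 for Ezh2 and -19.7 ± 4.21 for H3K27me3 (SD, n = 2). The gap between Runx1 and Ezh2 was 42.8 points and that between Runx1 and H3K27me3 was 54.4 points. Both replicates of Runx1 were higher at pairs and both replicates of the other antibodies lower, and the difference between antibodies was not tested.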

How the results depend on the processing

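No paired analysis was possible because the values are shares of regions in peak lists of single libraries and come from no test. Pairs minus single ends kept its direction in all 16 alternatives for each antibody, but not its size. For Runx1 it was 31.99 points at a q of at most 0.01, 29.9 at 1e-05, 10.8 with the 10000 strongest peaks, 33.7 with an overlap of 100 bp and 32.0 by summits. It was 44.1 for gaps up to 300 bp, 34.7 and 32.9 with single windows of 1000 and 2000 bp, 34.6 with no gene within 20 kb, 32.3 isolated from protein-coding genes only, 33.6 with no other gene in the region and 57.0 for starts only. For Ezh2 the same difference was -0.801, -0.210 and -0.614 under the 3 strength limits, -5.91 for gaps up to 300 bp, -3.89 and -7.13 with windows of 1000 and 2000 bp and -7.82 for starts only. For H3K27me3 it was -1.05, -0.111 and -1.05 under the strength limits, -6.03 by midpoints and -21.8 for starts only. Leaving out a replicate gave 34.5 to 34.9, -8.72 to -7.47 and -22.6 to -16.7. Facing minus single starts at q limits of 0.01 and 1e-05 was 55.6 and 51.3 for Runx1, -1.98 and -0.759 for Ezh2 and -1.50 and -0.248 for H3K27me3, and 55.9 to 57.0, -13.6 to -10.6 and -30.4 to -23.6 with a replicate left out. Chosen after seeing the data, CpG weighting gave 35.4 and -11.1 for Runx1 and Ezh2, merging regions gave 33.7 for Runx1, and omitting olfactory and vomeronasal genes gave 31.8 and -5.79. The log2 ratio of median folds, near 0 for Runx1 (-0.04) and H3K27me3 (-0.02), changed sign without replicate 2. It ranged from -0.029 to 0.080 for Runx1 and from -0.034 to 0.052 for H3K27me3 with a replicate left out, and was 0.000454 for Runx1 with windows of 2000 bp. For Ezh2 (0.14) it was 0.033 at a q of 0.01, 0.11 to 0.12 with a replicate left out and 0.16 with windows of 2000 bp. Called pairs with both genes covered came to 63.1% and 64.2% for Runx1, 27.5% and 28.3% for Ezh2 and 81.3% and 50% for H3K27me3 at the q limits, and to 61.7 to 62.8% for Runx1 and 55.5 to 61.7% for H3K27me3 with a replicate left out. At the q limits Ezh2 met the mark at 15 and 4 pairs, Runx1 met the mark at 7 and 1, all 3 met at 7 and 1, and Runx1 met Ezh2 at 32 with 1e-05. With replicate 1 or 2 left out these 4 overlaps held 100 to 146, 42 to 56, 33 to 50 and 59 to 84 pairs. The causes of these changes were not tested.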
